A study of Homo sapiens with 6 samples.

Results

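The neighbour genes of the NEAT1 locus were 9 protein-coding genes that flank NEAT1 on chromosome 11, namely POLA2, CDC42EP2, DPF2, SLC25A45, FRMD8, LTBP3, FAM89B, EHBP1L1 and MAP3K11. They were taken by gene symbol, by their place beside NEAT1 and not by a threshold on measured values, and were 9 of the 20522 genes listed for each library. Expression was measured by mRNA-seq in K1, an established cell line of papillary thyroid cancer. The NC group had 3 libraries from K1 cells transfected with a negative control siRNA, and the si-NEAT1_2 group had 3 libraries from K1 cells transfected with an siRNA against NEAT1_2, the long isoform of NEAT1. All cells were transfected with a lipid carrier, and no untransfected cells and no time after transfection were given. The question was whether these neighbours moved together when the groups were compared. For NEAT1 itself no value was analysed here. How far it was knocked down in these libraries was not measured, and a direction between the groups rests on the labels.

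NEAT1 is a long non-coding RNA, and its long isoform is the scaffold of paraspeckles, nuclear bodies that hold RNA-binding proteins. Some long non-coding RNAs act on genes beside their own site of transcription, while others act away from it, and neighbouring genes can also share enhancers or a stretch of open chromatin. The proteins encoded by the 9 genes have different roles, from DNA replication to vesicle transport, so that position is what the genes have in common by choice.

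Libraries held between 22798631 and 27066025 counts, and 13109 genes passed the filter on low counts. Of 7 thyroid lineage markers, PAX8 (113 to 169 FPKM over the 6 libraries), FOXE1 (5.75 to 8.78), HHEX (2.49 to 4.13) and TG (2.48 to 2.99) were detected, whereas the other 3 (TSHR, SLC5A5 and NKX2-1) were below 1 FPKM in all 6 libraries. The summed level of the 7 markers was 142 to 148 FPKM in the NC libraries and 126 to 184 in the si-NEAT1_2 libraries. The data come from a single cell line, and nothing states whether replicates were separate cultures, so p-values measure only the spread between these libraries.

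In GENCODE release 29, on GRCh38, NEAT1 lies on the plus strand of chromosome 11 from 65422774 to 65445540. On the side of lower coordinates lie POLA2 (65261762 to 65305589, plus strand), CDC42EP2 (65314818 to 65322429, plus strand), DPF2 (65333754 to 65353249, plus strand), SLC25A45 (65375192 to 65383701, minus strand) and FRMD8 (65386599 to 65413525, plus strand). FRMD8 ends 9.2 kb before NEAT1 and is the nearest of the 9, followed by SLC25A45 at 39.1 kb and DPF2 at 69.5 kb, while CDC42EP2 lies at 100.3 kb and POLA2 at 117.2 kb. On the side of higher coordinates lie LTBP3 (65538805 to 65558930, minus strand), FAM89B (65572349 to 65574198, plus strand), EHBP1L1 (65576038 to 65592650, plus strand) and MAP3K11 (65597755 to 65615382, minus strand). These 4 lie from 93.3 kb (LTBP3) to 152.2 kb (MAP3K11) from NEAT1. The 9 genes are not every gene of the region, since 9 other protein-coding genes of the files lie within 250 kb of NEAT1.

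Several neighbours share exons with other annotated genes. On the same strand, 84.8% of the exonic bases of CDC42EP2 and 35.1% of those of POLA2 are also exonic in AP000944.2, which spans both genes and was not used here. FAM89B shares 1030 of its 1458 exonic bases (70.6%) with SSSCA1 on the same strand, and its expected counts were fractional, as RSEM gives when it divides reads between genes. The values of FAM89B and SSSCA1 are therefore uncertain with respect to each other.

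Promoter windows are shown because neighbours that move together might share sequence features at their starts. RefSeq windows from 250 bases before to 50 bases after a start (GRCh38.p14) were found for 8 of the 9 genes, SLC25A45 and LTBP3 having 2 windows each. Capitals mark the GC box GGGCGG, the box CCAAT, the TATA-like letters TATAAA, the E2F-like letters TTTGGCG and the YY1-like letters AAGATGG, searched on both strands. The following 5 windows are printed 5′ to 3′ on the strand of the gene. They lie at chr11:65261712-65262011 (POLA2, plus), chr11:65314616-65314915 (CDC42EP2, plus), chr11:65382597-65382896 (SLC25A45, minus), chr11:65386387-65386686 (FRMD8, plus) and chr11:65575803-65576102 (EHBP1L1, plus).
POLA2: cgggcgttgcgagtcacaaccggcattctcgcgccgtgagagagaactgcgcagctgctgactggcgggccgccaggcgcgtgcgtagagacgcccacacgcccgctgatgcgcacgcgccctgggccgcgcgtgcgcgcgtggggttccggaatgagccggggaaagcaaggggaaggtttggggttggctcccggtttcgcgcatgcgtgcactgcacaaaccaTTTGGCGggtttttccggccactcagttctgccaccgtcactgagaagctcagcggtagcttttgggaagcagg
CDC42EP2: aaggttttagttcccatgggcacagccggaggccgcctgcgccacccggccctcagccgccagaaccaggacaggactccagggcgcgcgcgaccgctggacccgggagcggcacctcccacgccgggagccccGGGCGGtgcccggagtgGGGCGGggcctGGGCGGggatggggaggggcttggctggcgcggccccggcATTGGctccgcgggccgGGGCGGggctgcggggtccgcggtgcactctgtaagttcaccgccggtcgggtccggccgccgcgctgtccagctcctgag
SLC25A45: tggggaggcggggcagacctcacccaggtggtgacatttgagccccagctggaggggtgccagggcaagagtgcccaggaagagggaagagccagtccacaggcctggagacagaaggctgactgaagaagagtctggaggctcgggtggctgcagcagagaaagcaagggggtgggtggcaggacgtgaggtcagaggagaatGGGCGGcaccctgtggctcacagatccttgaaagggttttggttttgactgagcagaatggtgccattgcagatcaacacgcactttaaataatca
FRMD8: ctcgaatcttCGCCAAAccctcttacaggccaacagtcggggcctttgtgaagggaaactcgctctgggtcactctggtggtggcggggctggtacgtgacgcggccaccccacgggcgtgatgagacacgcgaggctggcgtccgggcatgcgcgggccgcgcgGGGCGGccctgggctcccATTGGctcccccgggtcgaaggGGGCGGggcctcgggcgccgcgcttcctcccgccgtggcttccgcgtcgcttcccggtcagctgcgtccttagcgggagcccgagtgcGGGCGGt
EHBP1L1: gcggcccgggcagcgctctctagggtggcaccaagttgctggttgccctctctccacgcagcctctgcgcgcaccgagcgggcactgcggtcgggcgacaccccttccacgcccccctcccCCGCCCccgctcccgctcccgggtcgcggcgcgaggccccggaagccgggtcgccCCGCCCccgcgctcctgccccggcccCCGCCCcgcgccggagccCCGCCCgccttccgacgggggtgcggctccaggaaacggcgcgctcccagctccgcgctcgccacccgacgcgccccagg

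The windows of POLA2, CDC42EP2, DPF2, FRMD8 and EHBP1L1 were rich in CpG, with 33 to 45 CpG in 300 bases, against a median of 14 over 35116 RefSeq windows. The 2 windows of LTBP3 were nearly as rich (30 and 31 CpG), while that of MAP3K11 had 16. The window of EHBP1L1 had the most among the 8 genes with a window (45 CpG, more than 96.5% of all windows) and a GC content of 80.7%, against a median of 58.7%. The first window of SLC25A45, the least expressed of the 9 genes, had only 5 CpG, and 29.6% of all windows had fewer. Its second window had 13 CpG, near the median, and 48.3% of all windows had fewer. GGGCGG was found in 45.0% of all windows and here 4 times each in CDC42EP2 and EHBP1L1, 3 times in FRMD8, 2 times in MAP3K11, once in each window of LTBP3 and once in the first window of SLC25A45, but not in POLA2 or DPF2. CCAAT (34.6% of all windows) was found in CDC42EP2, DPF2, FRMD8 and the second window of SLC25A45, and TATAAA (11.5%) in 0 of the 10 windows. TTTGGCG (1.92%) was found in POLA2 and FRMD8, and AAGATGG (5.84%) in DPF2. No matches of different motifs overlapped. A match describes the letters only, and the motifs were chosen after the sequences had been seen.

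Levels were compared between genes as FPKM, which is scaled for length. MAP3K11 had the highest mean in NC (22.4 ± 2.78 FPKM, SD, n = 3), followed by LTBP3 (21.5 ± 2.05), EHBP1L1 (20.3 ± 1.72), POLA2 (19.7 ± 3.10), FAM89B (19.0 ± 2.56) and DPF2 (17.4 ± 1.30). Each of these 6 differed from its neighbour in the order by less than 1 SD. FRMD8 (9.61 ± 1.22) and CDC42EP2 (8.85 ± 0.65) lay lower, near the median of 8.86 FPKM over the genes tested, and differed from each other by less than 1 SD. SLC25A45 was close to the limit of detection (0.14 ± 0.05 FPKM, with 6, 7 and 6 counts in the NC libraries).

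**Figure D1:**
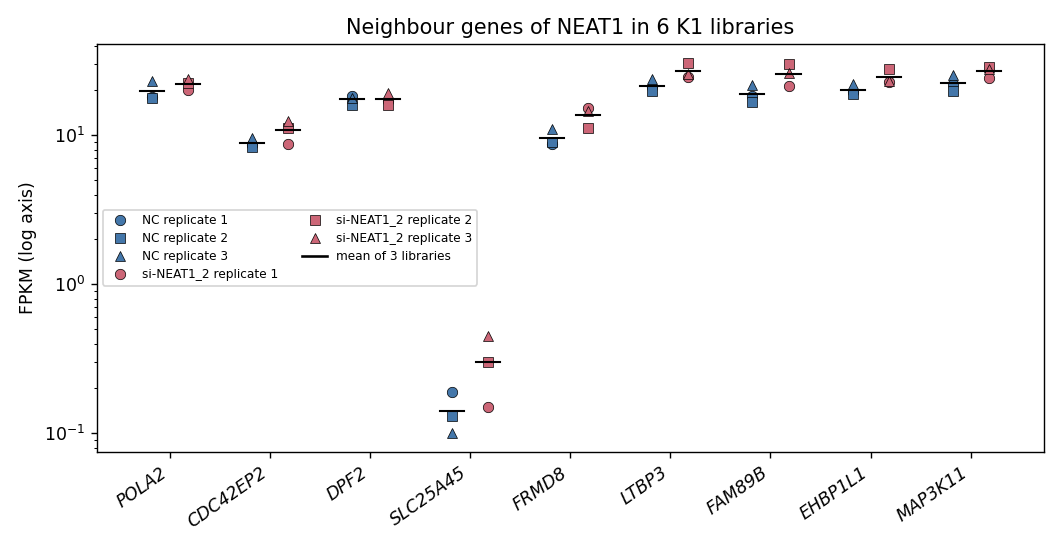
FPKM (log axis) of the 9 neighbour genes in each library. Points are libraries, colours are groups, shapes are replicate numbers and black lines are means of 3 libraries. The 8 genes other than SLC25A45 lie between 8.39 and 30.7 FPKM. The si-NEAT1_2 points of FRMD8, LTBP3 and EHBP1L1 lie above all NC points (3 of 8, background 12.4%).

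On read counts scaled by TMM to a common library size (CPM), all 8 neighbours that passed the filter had a log2 fold change above 0 (background 50.9% of 13109 genes), but none passed the threshold. FRMD8 and FAM89B were the only neighbours of which all 3 si-NEAT1_2 libraries lay above all 3 NC libraries (2 of 8, background 15.4%), and for 0 of 8 they lay below (background 14.1%). The fold changes of the 8 genes ranged from 1.04 (EHBP1L1 and DPF2) to 1.43 (FAM89B). With the quasi-likelihood test of edgeR at a Benjamini-Hochberg adjusted p below 0.05 and a change of 2-fold or more, 0 of 8 were called higher and 0 of 8 lower, where the background over 13109 genes was 0.0% in either direction. The lowest adjusted p of any gene was 0.0659. At an unadjusted p under 0.05, FRMD8, LTBP3 and FAM89B were higher in si-NEAT1_2 (3 of 8, background 11.2%) and 0 of 8 were lower (background 12.9%). DESeq2 also had 3 neighbours at an unadjusted p under 0.05, but no share over all genes is given for it, so the counts are not compared. The count of the main test moved when a library was left out, as did the share over all genes. It was 5 of these 8 without si-NEAT1_2 replicate 1 (15.0% of all genes tested), where SLC25A45 also passed the filter and was higher at that p. It was 0 without NC replicate 2 (4.0%), 1 without NC replicate 1 (6.78%) and also 1 when si-NEAT1_2 replicate 3 was left out (8.58%). In bulk libraries, a change in RNA per cell and a change in the share of cells that express a gene cannot be told apart.

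FRMD8 encodes a FERM domain protein that binds iRhoms and stabilises the ADAM17 sheddase complex at the cell surface. Its CPM was 26.3, 25.8 and 29.9 in NC replicates 1, 2 and 3 and 34.8, 34.1 and 37.6 in si-NEAT1_2 replicates 1, 2 and 3. The highest NC library was below the lowest si-NEAT1_2 library, so the groups did not overlap. The mean was 27.4 ± 2.23 in NC and 35.5 ± 1.85 in si-NEAT1_2 (SD, n = 3), a log2 fold change of 0.37 (SE 0.14), with an edgeR adjusted p of 0.172 and an exact permutation p of 0.1, two-sided, which is the smallest that 3 libraries against 3 allow. FRMD8 was the only neighbour above its own mean in si-NEAT1_2 replicate 1.

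FAM89B, also known as a leucine repeat adapter protein that links LIMK1 to the myotonic dystrophy kinase-related kinases of the cytoskeleton, had the largest fold change of the 8. Its CPM was 23.7, 21.1 and 27.3 in the NC libraries and 27.6, 41.8 and 33.9 in the si-NEAT1_2 libraries. The groups did not overlap, but NC replicate 3 and si-NEAT1_2 replicate 1 were nearly level. The mean was 24.0 ± 3.07 in NC and 34.4 ± 7.10 in si-NEAT1_2 (SD, n = 3), with a log2 fold change of 0.52 (SE 0.18), an edgeR adjusted p of 0.170 and an exact permutation p of 0.1. When its counts were summed with those of SSSCA1, the log2 fold change was 0.38 with an edgeR adjusted p of 0.211, an alternative chosen after seeing the data.

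LTBP3 encodes a latent TGF-beta binding protein of the extracellular matrix, which helps to secrete and store latent TGF-beta. Its CPM was 69.9, 61.1 and 73.5 in NC and 72.8, 93.2 and 98.3 in si-NEAT1_2. Replicates 2 and 3 of si-NEAT1_2 lay above all NC libraries, and replicate 1 lay just under NC replicate 3. The log2 fold change was 0.37 (SE 0.15), with an edgeR adjusted p of 0.179 and an exact permutation p of 0.2.

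MAP3K11 encodes MLK3, a mixed lineage kinase upstream of JNK. Its CPM was 77.2, 67.6 and 88.5 in NC and 85.3, 104.7 and 98.8 in si-NEAT1_2. The same libraries as for LTBP3 stood above the NC group, while si-NEAT1_2 replicate 1 lay within it. The log2 fold change was 0.31 (SE 0.14), with an edgeR adjusted p of 0.209 and an exact permutation p of 0.2.

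CDC42EP2, an effector protein of the small GTPase CDC42 that shapes the actin cytoskeleton, had CPM values of 17.1, 16.4 and 19.0 in NC and 17.2, 24.7 and 25.3 in si-NEAT1_2. Replicate 1 of si-NEAT1_2 was level with the NC libraries, and the other two were above them. The log2 fold change was 0.35 (SE 0.18), with an edgeR adjusted p of 0.232 and an exact permutation p of 0.2. CDC42EP2 had the lowest counts of the 8, from 387 to 632 per library.

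POLA2 encodes the B subunit of DNA polymerase alpha, which starts DNA synthesis together with primase. Its CPM was 54.9, 46.4 and 52.7 in NC and 49.0, 65.8 and 58.9 in si-NEAT1_2. The groups overlapped through si-NEAT1_2 replicate 1, which lay between NC replicates 2 and 3. The log2 fold change was 0.17 (SE 0.14), with an edgeR adjusted p of 0.457 and an exact permutation p of 0.3.

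DPF2, a double PHD finger subunit of the BAF chromatin remodelling complex, and EHBP1L1, a Rab8 effector of vesicle transport, differed least. DPF2 had CPM values of 49.9, 42.8 and 48.5 in NC and 45.9, 47.5 and 53.9 in si-NEAT1_2, with a log2 fold change of 0.06 (SE 0.13, edgeR adjusted p = 0.788). EHBP1L1 had 98.1, 94.8 and 96.4 in NC and 94.3, 108.5 and 96.7 in si-NEAT1_2, with a log2 fold change of 0.05 (SE 0.12, edgeR adjusted p = 0.808). In both genes the groups overlapped and 1 si-NEAT1_2 library was above all NC libraries, replicate 3 for DPF2 and replicate 2 for EHBP1L1. The sign was not stable for either gene: the log2 fold change of DPF2 was -0.00229 on log2(FPKM + 1), and that of EHBP1L1 was -0.0160 with library size alone as the scale.

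SLC25A45, a member of the mitochondrial carrier family, did not pass the filter and entered no test of the 8. It had 6, 7 and 6 counts in NC and 6, 19 and 24 in si-NEAT1_2, or 0.219, 0.297 and 0.233 CPM against 0.244, 0.798 and 0.960. Replicate 1 of si-NEAT1_2 lay at the level of NC, and replicates 2 and 3 were above all NC libraries. Without the filter, its log2 fold change was 1.40 (SE 0.74), with an edgeR adjusted p of 0.303 and an exact permutation p of 0.2.

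The choice between counts and FPKM changed which neighbours overlapped between groups. In FPKM, all 3 si-NEAT1_2 libraries lay above all 3 NC libraries for FRMD8, LTBP3 and EHBP1L1 (3 of 8, background 12.4%), while FAM89B overlapped (21.8 in NC replicate 3 and 21.6 in si-NEAT1_2 replicate 1). EHBP1L1 had 19.6, 19.1 and 22.3 FPKM in NC and 22.9, 28.0 and 23.1 in si-NEAT1_2, and the log2 ratio of the mean FPKM was 0.28, against 0.05 from counts. The ratio of count to FPKM within a library depends on the length assigned to the gene in quantification. For EHBP1L1 this ratio varied between 0.812 (si-NEAT1_2 replicate 2) and 1.17 (NC replicate 2) of its mean. Its SD on the log2 scale was 0.198, and 92.0% of 10507 genes had a smaller one (median 0.04). FRMD8 (0.844 to 1.11), LTBP3 (0.875 to 1.18) and POLA2 (0.883 to 1.17) also varied, with SDs of 0.145, 0.146 and 0.142, whereas CDC42EP2 (0.000407), DPF2 (0.0122), FAM89B (0.0141) and MAP3K11 (0.0350) hardly did. For DPF2, the log2 ratio of the mean FPKM was 0.00 to 2 decimals.

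The neighbours varied together from library to library, within each group as well as between the groups. The deviation of each gene's log2 CPM from its own mean over the 6 libraries was averaged over the 8 genes. This mean deviation was -0.12, -0.26 and -0.03 in NC replicates 1, 2 and 3 and -0.05, 0.25 and 0.21 in si-NEAT1_2 replicates 1, 2 and 3. The number of neighbours above their own mean was 3, 0 and 2 of 8 in NC and 1, 7 and 7 of 8 in si-NEAT1_2. Over all genes, the share above their own mean was between 49.0% and 51.9% in each library. Thus si-NEAT1_2 replicate 1 was level with the NC libraries, and NC replicate 2 was the lowest library for 7 of the 8 genes, all but EHBP1L1. The highest library was si-NEAT1_2 replicate 2 for POLA2, FAM89B, EHBP1L1 and MAP3K11 and replicate 3 for CDC42EP2, DPF2, FRMD8 and LTBP3. The median SD of log2 CPM within a group was 0.12 in NC and 0.18 in si-NEAT1_2 for the 8 genes, against 0.16 and 0.24 over all genes tested.

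**Figure D2:**
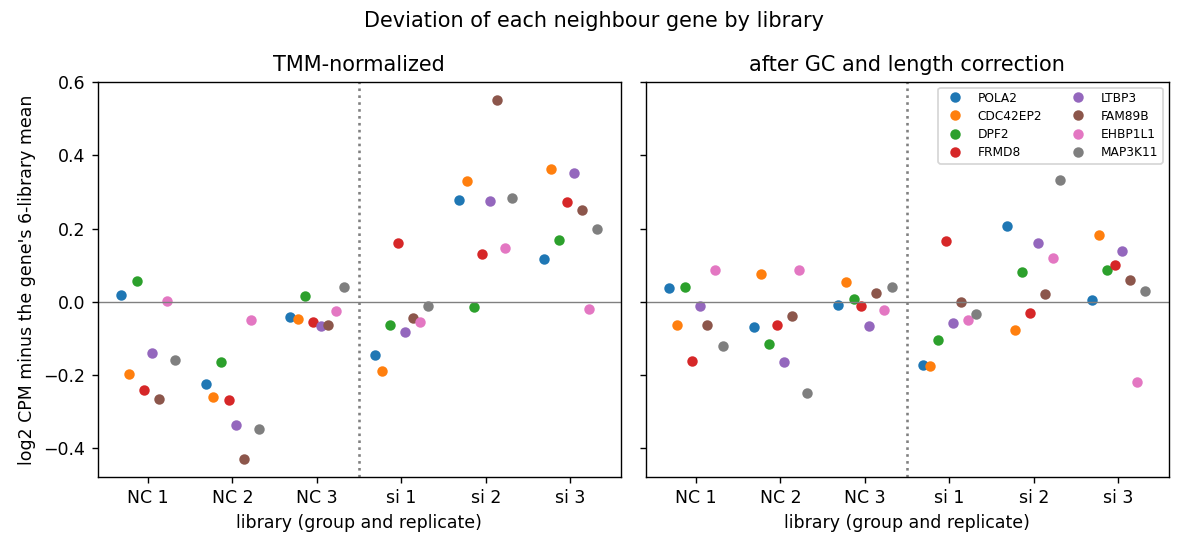
Deviation of log2 CPM from each gene's 6-library mean, by library, for the 8 neighbours tested, with TMM scaling (left) and after the correction for GC content and transcript length (right). Points are genes. On the left, all 8 points lie below 0 in NC replicate 2 and 7 of 8 lie above 0 in si-NEAT1_2 replicates 2 and 3. On the right, the library means lie between -0.07 and 0.10.

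The labels carry a library code whose meaning is not stated, and its L part differed between libraries. Within L2 (2 NC libraries and 1 si-NEAT1_2 library), 8 of 8 neighbours were higher in si-NEAT1_2, with a median log2 difference of 0.42 (0.00 over all genes). Within L3 (1 library per group), 7 of 8 were higher, again with a median of 0.42 (0.00 over all genes), and EHBP1L1 was at -0.02. The lone L4 library was si-NEAT1_2 replicate 1, the one that lay level with NC, so in it the code has no NC partner.

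As a group, the 8 genes had a median log2 fold change of 0.33, against 0.01 over all 13109 genes. A log2 fold change above 0.3 was found for 5 of 8 neighbours (background 20.9%). The 4 genes tested on the lower side of NEAT1 had a median of 0.26 and the 4 on the higher side 0.34. The fold changes did not order by distance, since DPF2, at 69.5 kb, had 0.06, between FRMD8 at 9.2 kb and CDC42EP2 at 100.3 kb, which had 0.37 and 0.35.

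Genes farther out lay at about the same level. Of 72 other protein-coding genes within 1000 kb of NEAT1, 51 were tested. A log2 fold change above 0 was found for 48 of these (background 50.9% of 13109 genes), with a median of 0.26. The median was 0.26 for the 6 genes within 250 kb and 0.32 for the 25 genes at 250 to 500 kb. It was 0.22 for the 20 genes at 500 to 1000 kb. At an unadjusted p under 0.05 in edgeR, 18 of the 51 were higher (background 11.2%) and 1 lower (background 12.9%). The lower gene was PCNX3, 170.2 kb away beyond MAP3K11, with a log2 fold change of -0.40 (SE 0.12), named after its value was seen. Over the other 652 chromosome 11 genes tested, the median was 0.08. None of the 51 or of the 652 genes had an adjusted p under 0.05. Of the 652, 102 were higher (background 11.2%) and 90 lower (background 12.9%) at an unadjusted p under 0.05 in edgeR.

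**Figure D3:**
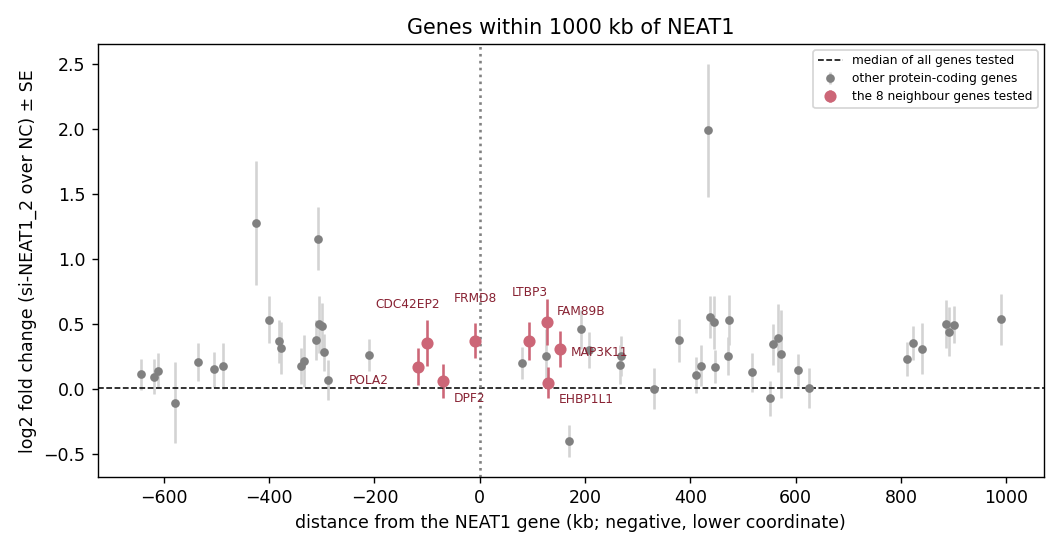
Log2 fold change (si-NEAT1_2 over NC, with its SE) of the protein-coding genes tested within 1000 kb of NEAT1, against the distance from the NEAT1 gene in kb (negative on the lower side). Red points are the 8 neighbours, grey points the other 51 genes and the dashed line the median of all genes tested. Grey points lie at the level of the red ones up to 1000 kb away, and 48 of 51 are above 0 (background 50.9%).

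A hand-made list of 40 symbols of the wider region held 32 tested genes. All of these are among the 51 genes above, so the list is not a second set of measurements. A log2 fold change above 0 was found for 30 of the 32 (background 50.9%), with a median of 0.27. The 3 with the lowest unadjusted p were TM7SF2, CTSW and FIBP. TM7SF2, an enzyme of cholesterol synthesis 306.4 kb from NEAT1, had 3.90 ± 1.08 CPM in NC and 8.73 ± 1.22 in si-NEAT1_2 (SD, n = 3; log2 fold change 1.16, SE 0.24, edgeR adjusted p = 0.170). CTSW, a cathepsin known from cytotoxic lymphocytes, had 0.284 ± 0.069 and 1.15 ± 0.53 CPM (log2 fold change 1.99, SE 0.51, edgeR adjusted p = 0.170), a low level. FIBP, an intracellular FGF1 binding protein, had 47.7 ± 5.24 and 70.1 ± 13.5 CPM (log2 fold change 0.56, SE 0.16, edgeR adjusted p = 0.170). With the GC and length correction, the log2 fold change was 0.78 for TM7SF2, 1.54 for CTSW and 0.17 for FIBP.

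The neighbours were GC-rich, and fold changes in these libraries went with GC content over the whole table. The longest transcript of the 8 genes had between 51.4% (DPF2) and 67.8% GC (LTBP3), against a median of 48.0% over the genes tested. LTBP3 was richer in GC than 99.1% of genes, FAM89B (66.9%) than 98.6%, EHBP1L1 (64.0%) than 95.1%, CDC42EP2 (61.5%) than 90.2%, FRMD8 (61.3%) than 89.5%, MAP3K11 (59.1%) than 83.2%, POLA2 (54.5%) than 69.5% and DPF2 than 60.0%. When all genes were divided into 4 groups of like size by GC content, the median log2 fold change was -0.35 in the lowest group, -0.11 and 0.12 in the middle ones and 0.27 in the highest, which held 6 of the 8 neighbours. In the highest group 86.0% of genes had a log2 fold change above 0, against 15.1% in the lowest. The median deviation of the genes of the highest group was -0.08, -0.24 and -0.06 in the NC libraries and -0.03, 0.26 and 0.17 in the si-NEAT1_2 libraries, low and high in the same libraries as the neighbours.

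A correction that removed, in each library, the trend of the counts with GC content and transcript length left little of the common shift. The trend was fitted to the genes of these same libraries, so genes of like GC content come out near 0 by design. Such a correction would also remove a difference between the groups that went with GC content or length, and this was not tested. The median log2 fold change of the 8 genes was 0.04 with this correction and 0.33 without it. A log2 fold change above 0 was then found for 6 of 8 (background 49.2% of 12581 genes), and 0 of 8 were higher at an unadjusted p under 0.05 (background 8.25%). MAP3K11 then had the largest value (0.22, adjusted p = 0.358), followed by LTBP3 (0.16, adjusted p = 0.386) and FRMD8 (0.16, adjusted p = 0.435, edgeR), while FAM89B went from 0.52 to 0.05. CDC42EP2 and EHBP1L1 turned to -0.04 and -0.10. The mean deviation of the 8 genes by library was -0.03, -0.07 and 0.00 in NC and -0.05, 0.10 and 0.05 in si-NEAT1_2. The median of the 51 other genes within 1000 kb was 0.00 with the correction and 0.26 without it.

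**Figure D4:**
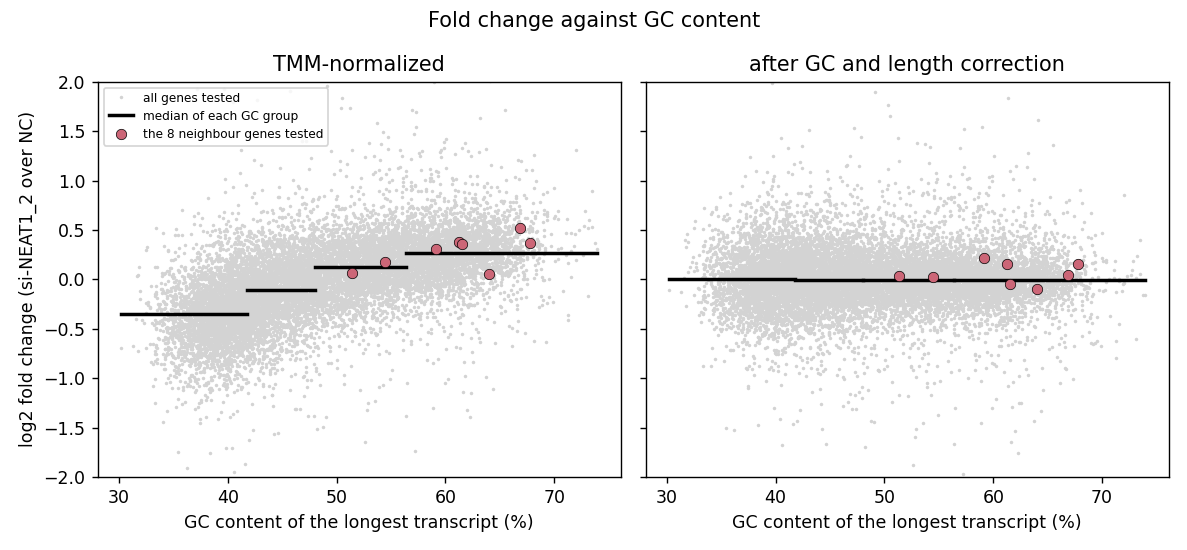
Log2 fold change against the GC content of the longest transcript (%), with TMM scaling (left) and after the correction for GC content and length (right). Grey points are genes, black lines the medians of the 4 GC groups and red points the 8 neighbours. The lines run from -0.35 to 0.27 on the left and lie at 0.00 to -0.01 on the right. On the right the correction brings them near 0 by design. The axis ends at -2 and 2, and 6 genes on the left and 8 on the right lie beyond it.

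Genes that work with the neighbours lay on both sides of 0. Of 55 genes that belong to the same complexes, families or pathways, 53 were tested. Of these, 23 had a log2 fold change above 0 (background 50.9%) and 30 below, with a median of -0.07. With the GC and length correction the median was -0.01 for the partners and 0.04 for the neighbours, and the median GC content was 52.7% and 61.4%. At an unadjusted p under 0.05 in edgeR, 7 partners were higher (background 11.2%) and 7 lower (background 12.9%). None had an adjusted p under 0.05. For each neighbour, the partner with the lowest unadjusted p is given. For LTBP3 this was its ligand TGFB1, with 72.4 ± 6.19 CPM in NC and 109 ± 14.7 in si-NEAT1_2 (SD, n = 3; log2 fold change 0.59, SE 0.14, edgeR adjusted p = 0.170), the groups not overlapping. LTBP3 and TGFB1 thus both had positive values. This did not hold for POLA2 with the catalytic subunit POLA1 (-0.47), FAM89B with the kinase CDC42BPA (-0.81) or MAP3K11 with its paralog MAP3K9 (-0.53). These signs are those without the GC and length correction. Partners of LTBP3 had a median GC content of 54.4% and those of POLA2 42.9%. It was 51.0% for the partners of FAM89B and 47.6% for those of MAP3K11.

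The remaining partners named by this rule had positive values. They were CDC42EP5 (1.31), SMARCD2 (0.34), SLC25A29 (0.24), RHBDF2 (0.26) and BIN1 (0.38). CDC42EP5, a CDC42 effector like CDC42EP2, was expressed at only 0.560 ± 0.352 CPM in NC. SMARCD2 is a BAF subunit like DPF2, and SLC25A29 a mitochondrial carrier like SLC25A45. RHBDF2 is an iRhom bound by FRMD8, and BIN1 a membrane-shaping partner of EHBP1L1. The edgeR adjusted p of the 9 partners named was between 0.170 (TGFB1 and CDC42BPA) and 0.336 (RHBDF2). By neighbour, the partners with a log2 fold change above 0 were 1 of 5 for POLA2, 3 of 5 for CDC42EP2, 5 of 14 for DPF2, 2 of 3 for SLC25A45, 1 of 3 for FRMD8, 3 of 6 for LTBP3, 2 of 4 for FAM89B, 3 of 5 for EHBP1L1 and 3 of 8 for MAP3K11.

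The genes whose log2 CPM followed the mean standardised profile of the 8 neighbours most closely over the 6 libraries lay on other chromosomes. They were MMP14 on chromosome 14 (Pearson r = 0.997), AUP1 on chromosome 2 (r = 0.997) and HPCAL1 on chromosome 2 (r = 0.996), the highest of 9562 genes compared. These values describe 6 libraries that all genes share, and 12.2% of the genes compared had an r above 0.9. Their transcripts had 58.9%, 59.6% and 59.9% GC.

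The authors' group table gave other values for the neighbours than the libraries did. It holds 1 FPKM value per group, without replicate values and with no statement of how it was made. Its NC counts had values such as 609.333 (CDC42EP2) and 28.6667 (SLC25A45), as averages of 3 values would have. They cannot be means of the libraries used here, since most of the FPKM values lay outside the range of the 6. LTBP3 had 102.3 FPKM in NC and 51.5 in SI, while the 6 libraries ranged from 19.7 to 30.7. CDC42EP2 had 17.0 and 46.7, a ratio of 2.74, while its libraries ranged from 8.39 to 12.4. The NC value lay outside the range of the 6 libraries for 7 of 9 neighbours and the SI value for 6 of 9, as it did for 68.2% and 73.7% of 10300 genes. FRMD8 (9.11 and 13.9, ratio 1.52) and POLA2 (22.1 and 18.5, ratio 0.839) were within the range of the libraries in both groups.

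In the group table the neighbours did not lie on the same side, and the median log2 ratio of SI to NC over those of its genes that were compared was -0.23. The ratio of SI to NC was above 1 for CDC42EP2, FRMD8, MAP3K11 (1.41) and FAM89B (1.21) and below 1 for POLA2, EHBP1L1 (0.769), DPF2 (0.762), SLC25A45 (0.614) and LTBP3 (0.503). Among genes with at least 1 FPKM in a group, a ratio of at least 2 in favour of SI was found for 1 of 8 neighbours (background 3.55% of 11361 genes) and of at least 2 in favour of NC for 0 of 8 (background 14.3%). FRMD8, MAP3K11, FAM89B and CDC42EP2 were higher in both sources, whereas POLA2, LTBP3, EHBP1L1 and SLC25A45 were lower in SI in the group table and had a higher mean FPKM in the si-NEAT1_2 libraries.

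**Figure D5:**
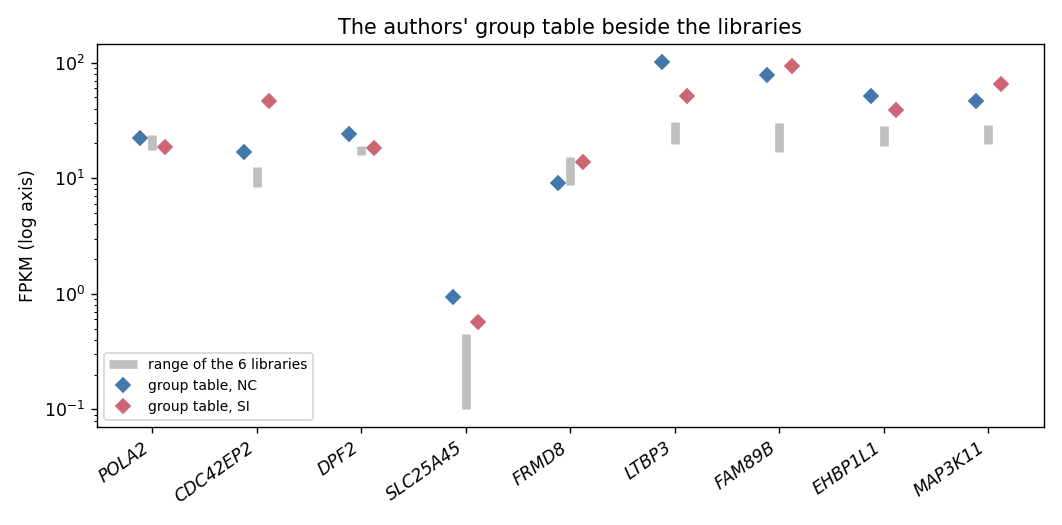
FPKM (log axis) of the 9 neighbours in the authors' group table (diamonds, 1 value per group) beside the range of the 6 libraries (grey bars). Both diamonds lie on the bar for FRMD8 and POLA2 and above it for CDC42EP2, SLC25A45, LTBP3, FAM89B, EHBP1L1 and MAP3K11.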

How the data were processed

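mRNA-seq of 3 NC and 3 si-NEAT1_2 libraries was grouped by the labels. The paper states that the authors enriched mRNA, mapped reads with TopHat2 and quantified genes with RSEM, while the submitters' processing notes name fastp 0.18.0, Bowtie2 2.2.8, HISAT2, StringTie 1.3.1 and GRCh38. Which of these tools made the deposited values is not clear. For each library the authors deposited expected counts, which are not normalized and of which 9.19% to 9.61% were fractional. They also deposited FPKM, which is scaled by length and depth. Their group table, also deposited, holds 1 expected count and 1 FPKM per gene for each group. The strand setting is not given in the sources used here. NEAT1 was not analysed here.

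Expected counts were rounded, filtered with filterByExpr, scaled by TMM and tested over all genes by quasi-likelihood in edgeR 4.0.16 (R 4.3.3), with Benjamini-Hochberg adjustment, a threshold of 0.05 and the study's fold change of at least 2. The 838 unannotated loci held 0.336% to 0.447% of the counts per library. SEs are the absolute log2 fold change divided by the square root of F. For single genes, CPM was also compared by exact permutation, two-sided. The tests were checked on simulated data. GC content and length are those of the longest transcript in GENCODE release 29 (96.0% of genes tested), and the correction used splines with 5 degrees of freedom per library. Alternatives were DESeq2's size factors, no TMM, no filter, DESeq2 1.42.0, limma-trend (limma 3.58.1) on log2(FPKM + 1) and log2(FPKM + 0.1), the replicate number as a block, the library code as a covariate, the GC and length correction with and without the block, and the omission of each library.

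The 9 genes and all lists were chosen with earlier results of these data known. The genes named were the 9 neighbours, the 3 genes of the wider list and the 1 partner of each neighbour with the lowest unadjusted p, and the 3 genes (average log2 CPM of 3 or more) most like the neighbours' mean profile.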

Additional observations from a re-analysis of the deposited data

How the results depend on the processing

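The number of neighbours past the thresholds was 0 under all 17 alternatives, and FRMD8, LTBP3, FAM89B, MAP3K11 and POLA2 kept a log2 fold change above 0 in each of them. The lowest adjusted p of a neighbour was 0.0516, for FAM89B without si-NEAT1_2 replicate 1. The median log2 fold change of the 8 neighbours was 0.0435 after the correction for GC and length, also with the replicate block added, and 0.25 to 0.41 when each library was left out. Neighbours higher at an unadjusted p under 0.05 in edgeR numbered 3 in the main test (11.2% of all genes tested) and 0 after that correction (8.25%). With the replicate block the number was 1, and no share over all genes is given for it. With 1 library left out, it was 1 without NC replicate 1 (6.78%), 0 without NC replicate 2 (4.0%) and 4 without NC replicate 3 (7.03%). It was 6 if si-NEAT1_2 replicate 1 was omitted (15.0%, SLC25A45 among the 6) and 1 if si-NEAT1_2 replicate 3 was (8.58%). On log2(FPKM + 1), 1 neighbour in place of 3 was above its mean in NC replicate 1, and 3 in place of 1 in si-NEAT1_2 replicate 1.

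Single genes changed sign as follows. Corrected for GC and length, CDC42EP2 was at -0.0426, or -0.0492 with the replicate block added. EHBP1L1 was at -0.0987 and -0.104 in the same fits, -0.0160 without TMM and -0.0231 without si-NEAT1_2 replicate 2 (up to 0.0819 with another library left out). DPF2 was at -0.00229 on log2(FPKM + 1), -0.00247 on log2(FPKM + 0.1), -0.00616 without NC replicate 2 and, if si-NEAT1_2 replicate 3 was omitted, -0.00999 (up to 0.10 with another library left out). The wider neighbours had a median of -0.0298 after that correction, -0.0309 with the block added, and 0.14 to 0.35 when each library was left out. The partners ranged from -0.09 to -0.01 when each library was left out.

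Over the whole table, 0 genes were called higher and 0 lower. The calls were 9 higher and 9 lower without the filter, 19 and 45 with DESeq2, 1 and 3 when corrected for GC and length, 0 and 1 without TMM, and 0 and 1 on log2(FPKM + 0.1). Leaving out each library gave 0 to 32 higher and 0 to 184 lower calls, the highest of both without si-NEAT1_2 replicate 1, and 1 and 2 without si-NEAT1_2 replicate 2. The cause was not tested. Same-numbered libraries did not deviate together from their group means (r = -0.245, -0.319 and -0.00961 over genes), and the labels do not tie the numbers to a shared culture or day. The methods speak of 3 pairs without saying what a pair shared, so the block was kept as an alternative, and with it the median of the neighbours was 0.32. SLC25A45, with 6 to 24 counts per library, is limited by depth.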
